A study of Mus musculus with 4 samples.

Results

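The transcription factors that set or mark the microglial lineage, Sall1, Mef2a, Mef2c, Spi1, Runx1, Lyl1, Hhex, Cebpa and Cebpb, were followed in primary mouse microglia with and without lipopolysaccharide (LPS). They were chosen by name, and all 9 were found among the 24148 genes of the deposited count table after its RefSeq accessions were matched to symbols and summed per gene. The cells came off mixed glial cultures by shaking and were plated again, with no sort for microglia described. Control libraries (2) came from untreated cells, and LPS libraries (2) from cells given LPS, a component of the bacterial outer membrane, at 10 ng/ml for 4 h. The sources used here do not give the strain, age or sex of the mice. The labels do not say whether the replicates came from separate cultures, so p-values here reflect no more than the scatter among 4 libraries. That scatter was larger than counting error, and its source is not given.

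Microglia descend from macrophage progenitors of the yolk sac. Spi1 encodes PU.1, the Ets factor on which the whole myeloid lineage depends, and Runx1 and C/EBP factors open myeloid enhancers together with it. Sall1 is a zinc finger repressor that, among macrophages, is held to be typical of microglia, and Mef2 factors bind many of the enhancers that are active in these cells. Lyl1 and Hhex are factors of early blood development that stay on in microglia and other macrophages.

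Library totals ran from 3617176 to 5095630 counts. Levels are given as CPM, a gene's share of its library with TMM scaling (a correction for differences in RNA composition), and as mean ± SD with n = 2 libraries a group. Libraries with the same replicate number resembled each other in their sums of oligodendrocyte and astrocyte markers. Summed CPM over 10 markers of the oligodendrocyte lineage was 425 in control replicate 1 and 437 in LPS replicate 1, against 69.2 in control replicate 2 and 61.6 in LPS replicate 2. Over 10 astrocyte markers the sums were 121 and 137 in the libraries numbered 1 and 323 and 453 in those numbered 2. Single genes made up a large part of these sums. Mag alone stood at 180 and 205 CPM in control and LPS replicate 1. Aqp4 alone stood at 116 and 210 CPM in control and LPS replicate 2. The astrocyte marker S100b went the other way. It stood at 37.3 and 39.4 CPM in the libraries numbered 1 and at 2.71 and 2.66 in those numbered 2. Over 12 microglia markers the sums were 4206 and 3646 without LPS and 2876 and 2619 with it. Of the 10 microglia markers tested, 0 were called by edgeR or DESeq2, 5 were lower and 0 higher at an unadjusted p under 0.05 (edgeR; 8.51% and 12.8% of all genes tested), and the median log2 fold change was -0.57. Itgam was listed at 0 and Trem2 at 0 to 2 counts, each with 2 accessions in the table. In bulk RNA, fewer cells of a type and less RNA per cell cannot be told apart.

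**Figure D1:**
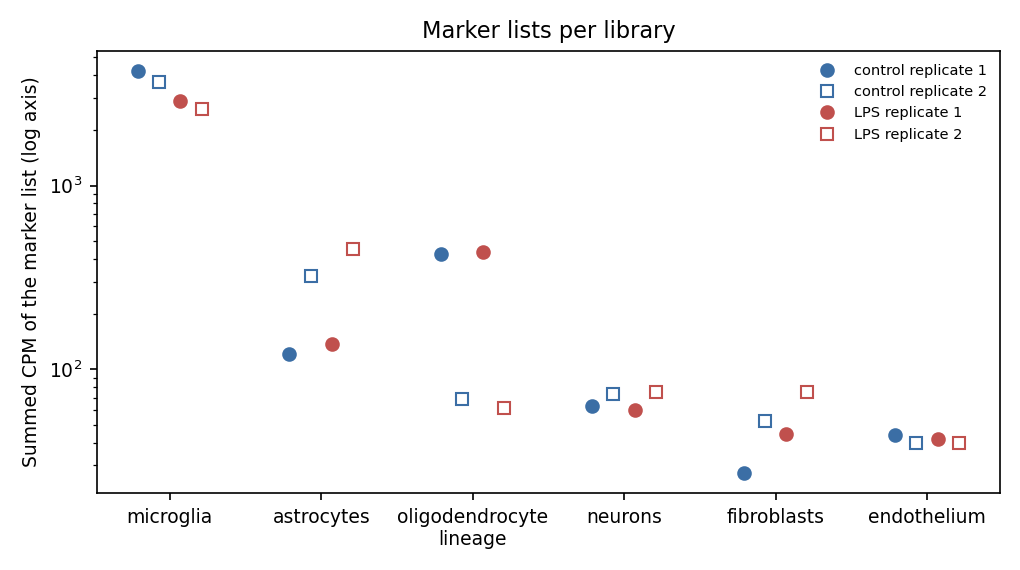
Summed CPM (log axis) of marker lists fixed for 6 cell types, with 1 point per library (blue control, red LPS, filled circles replicate 1, open squares replicate 2). The oligodendrocyte sums separate the libraries by number, 425 and 437 against 69.2 and 61.6, and the microglia sums separate them by treatment.

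Of the 9 lineage factors, 4 had enough counts to be tested, 1 was called lower in LPS and 0 were called higher (1, Spi1, by DESeq2 or at an unadjusted p under 0.05). Lyl1 was about 10-fold lower in LPS, Spi1 was about 3-fold higher without passing the test, and Sall1 and Hhex differed by less than 1.5-fold without a call. The test was edgeR's quasi-likelihood test over the 9548 genes that averaged 10 counts or more, and a call is a Benjamini-Hochberg adjusted p under 0.05. Over all genes tested, 6.55% were called higher and 1.79% lower, 8.34% in either direction, and the median log2 fold change was -0.05. DESeq2 called 8.09% higher and 2.42% lower. With 4 factors tested, 1 call is no result about the group. Mef2a and Mef2c held at most 15 counts in each library and were not tested. Runx1, Cebpa and Cebpb were listed at 0 in all 4 libraries, and for these 3 the table gives no level, as described further on.

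Lyl1 encodes a basic helix-loop-helix factor that pairs with E proteins and is closely related to Tal1. The gene lies on chromosome 8 (84701423 to 84704716, GRCm38). Control replicates 1 and 2 held 140 and 104 Lyl1 counts, and LPS replicates 1 and 2 held 14 and 9. These correspond to 37.1 and 20.2 CPM in control and 3.37 and 2.17 CPM in LPS. Both LPS libraries lay below both controls. On the log2 scale the spread within each group was small beside the distance between the groups. In CPM the controls stood about as far apart as the lower control and the higher LPS library. The mean went from 28.6 ± 11.97 to 2.77 ± 0.843 CPM, and Lyl1 fell by 3.35 ± 0.46 (SE) on the log2 scale, 10.2-fold (edgeR adjusted p = 0.012). Only 9 of the 9548 genes tested had a lower fitted log2 fold change. The ratio of same-numbered libraries was -3.46 for replicate 1 and -3.21 for replicate 2 on the log2 scale. When LPS replicate 2 was left out, Lyl1 was no longer called (-3.06, adjusted p = 0.064), and over all settings the adjusted p ran from 3.0e-09 to 0.064. Lyl1 has 1 accession, so its reads were not divided among transcripts. The annotated gene Nfix overlaps it on the other strand and had 17 counts over the 4 libraries together, but with 3 accessions its count is uncertain as a level. For comparison, the summed microglia markers were at most 4206 CPM in control and at least 2619 CPM in LPS. What part the cell makeup has in the fall of Lyl1 was not tested.

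The promoter window of Lyl1 is shown because Lyl1 is the lineage factor with a call. It spans chr8:84701207-84701506 (GRCm38.p6, plus strand, from RefSeq), 250 bases before to 50 bases after an annotated start, and is printed in the direction of the gene. That start lies downstream of the gene start given above (84701423), which falls within the 250 bases. Capitals mark matches, on either strand, to CCGGAA (an Ets core, here TTCCGG and CCGGAA) and to GAGGAA (a core bound by PU.1, itself an Ets factor).

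Lyl1: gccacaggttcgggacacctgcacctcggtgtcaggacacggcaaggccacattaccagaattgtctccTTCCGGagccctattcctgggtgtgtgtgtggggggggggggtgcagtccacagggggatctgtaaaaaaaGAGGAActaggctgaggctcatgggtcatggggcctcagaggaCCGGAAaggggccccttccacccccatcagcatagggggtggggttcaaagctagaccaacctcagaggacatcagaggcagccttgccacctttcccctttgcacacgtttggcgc

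It held 2 matches to CCGGAA and 1 to GAGGAA, and none to TGTGGT, a Runx core, or to GATAAG, a core of Gata factors. Of 32851 promoter windows of this length, 14.9% held CCGGAA, 28.3% GAGGAA, 16.8% TGTGGT and 7.44% GATAAG, on either strand. The table held windows for 8 of the 9 factors, all but Spi1. CCGGAA was also found in the Mef2a window and in 1 of the 2 Runx1 windows, and the other Runx1 window held 2 matches to TGTGGT. Matches to GAGGAA were also found in the Mef2a window (2 matches), in 2 of the 3 Mef2c windows and in 1 of the 2 Runx1 windows, and GATAAG in 1 of the 3 Sall1 windows. These matches describe the letters and no binding was measured.

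**Figure D2:**
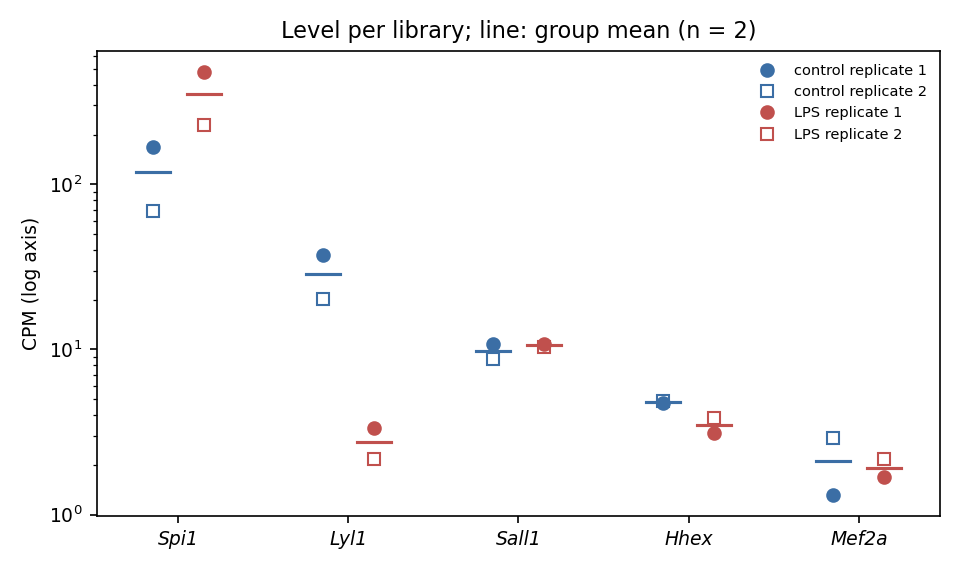
CPM (log axis) of the 5 lineage factors with counts in all 4 libraries, with 1 point per library and a line at each group mean. Both LPS points of Lyl1 (3.37 and 2.17) lie below both control points (37.1 and 20.2), Spi1 is higher in the libraries numbered 1, and the Sall1 groups overlap.

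Lyl1 works with Lmo2, Ldb1, an E protein and a Gata factor in a multi-protein complex, but the table says little of these partners. Of the 8 genes Tal1, Lmo2, Ldb1, Tcf3, Tcf4, Tcf12, Gata1 and Gata2, 1 was tested. Tcf4, an E protein, had 11, 11, 15 and 13 counts in the 4 libraries and a log2 fold change of 0.43 ± 0.43 (adjusted p = 0.67). The other 7 were under the minimum, 5 of them with several accessions, and Tcf3, with 8 accessions, was listed at 0.

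Spi1 was the most abundant of the lineage factors that could be compared. It lies on chromosome 2 (91082374 to 91115759) and has 1 accession. It had 636 and 355 counts without LPS and 1990 and 950 with it. In CPM these were 168 and 68.8 in control and 479 and 230 in LPS, so that both LPS libraries lay above both controls. The libraries numbered 1 were also higher than those numbered 2, 2.45-fold in control and 2.09-fold in LPS. The mean went from 119 ± 70.5 to 354 ± 176 CPM, 2.99-fold, with a log2 fold change of 1.58 ± 0.53 that did not pass the test (edgeR adjusted p = 0.17). The 2 LPS libraries stood about as far apart as the group means. Within the libraries numbered 1 the log2 ratio was 1.51 and within those numbered 2 it was 1.74. Spi1 was called higher in 4 of the 12 other settings. It was called by DESeq2 (1.59, adjusted p = 0.027) and by edgeR with no filter on low counts (1.68, 0.020). It was also called when edgeR took the replicate number as a block (1.62, 1.2e-09) and without control replicate 1 (2.35). The labels tie the numbers to no culture or day. Without control replicate 2 the value was 1.03 (0.21) and without LPS replicate 1 it was 0.96 (0.54). Other microglial genes differed between the numbers in the same direction. Csf1r, the receptor of the growth factor that microglia need, was 2.13-fold and 1.62-fold higher in the library numbered 1 of control and LPS, and Cx3cr1, the fractalkine receptor, 6.06-fold and 2.76-fold. Whether cell makeup has a part in the spread of Spi1 was not tested.

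Among 16 relatives of Spi1 in the Ets family, 9 were tested, 1 was called higher and 1 lower, and their median log2 fold change was 0.30. Over all genes tested, 6.55% were called higher and 1.79% lower, and so few calls are no result about the family. Ets2, an Ets factor downstream of Ras signalling, had 209 and 141 counts without LPS and 2340 and 1070 with it. It rose from 41.3 ± 19.8 to 411 ± 215 CPM, by 3.32 ± 0.52 on the log2 scale (edgeR adjusted p = 0.018), and kept its call in each of the 12 other settings (adjusted p up to 0.037, with a value of 2.66 without LPS replicate 1). Like Spi1, Ets2 was higher in the library numbered 1 of each group. Fli1, a factor of blood and endothelial development, had 403 and 542 counts without LPS and 105 and 76 with it. It fell from 106 ± 1.22 to 21.8 ± 4.87 CPM (log2 fold change -2.28 ± 0.25, edgeR adjusted p = 0.0055), also in each other setting (adjusted p up to 0.042). The 7 tested relatives without a call, Etv6, Elf4, Gabpa, Elk4, Etv5, Elk3 and Elk1, had log2 fold changes from -0.25 (Elk1) to 0.71 (Etv6). The closest paralogs of Spi1 were under the minimum: Spib had 6, 5, 7 and 1 counts and Spic 2, 7, 8 and 6.

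Of 18 myeloid genes described elsewhere as targets of PU.1, 13 were tested, 2 were called higher and 1 lower, with a median log2 fold change of 0.18. Over all genes tested, 6.55% were called higher and 1.79% lower. At an unadjusted p under 0.05 in edgeR, 4 were higher and 1 lower, beside 12.8% and 8.51% of all genes tested. With the replicate number as a block, 4 were called higher and 4 lower, beside 17.6% and 13.2%. Cybb, the catalytic subunit of the phagocyte NADPH oxidase, rose by 2.17 ± 0.30 (edgeR adjusted p = 0.012), and Lcp1, the actin-bundling protein L-plastin, rose by 2.40 ± 0.32 (0.010). Fcgr3, an activating receptor for IgG, fell by 1.62 ± 0.20 (0.0082). Without LPS replicate 1 all 3 calls were lost at values of similar size (Cybb 2.03, adjusted p = 0.050, Lcp1 2.18, 0.066, Fcgr3 -1.62, 0.071), and that of Fcgr3 also without LPS replicate 2 (-1.61, 0.074). Csf1r had a log2 fold change of -0.59 ± 0.42 and Tyrobp, a signalling adaptor of myeloid receptors, of -0.40 ± 0.17, neither with a call.

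Sall1 was measured at nearly the same level in all 4 libraries. The gene lies on chromosome 8 (89027242 to 89044162) and has 1 accession. It had 41 and 45 counts without LPS and 45 and 43 with it, or 10.9 and 8.72 CPM in control and 10.8 and 10.4 CPM in LPS. The groups overlapped, and neither treatment nor replicate number set a library apart. The mean was 9.79 ± 1.51 CPM in control and 10.6 ± 0.306 CPM in LPS, a log2 fold change of 0.12 ± 0.31 (edgeR adjusted p = 0.89). With total counts in place of TMM scaling, which moved the median of all genes from -0.05 to -0.48, Sall1 had a value of -0.30 (adjusted p = 0.56). Its paralog Sall3 had 44 and 53 counts without LPS and 41 and 42 with it, with a log2 fold change of -0.13 ± 0.29 and no call (0.87). Sall2, with 2 accessions, and Sall4, with 3, had at most 4 counts in any library. In simulated counts, 8% of genes given a true log2 change of 1 were called, against 72% for a change of 2 and 100% for 3, so a 2-fold change of Sall1 could have gone without a call.

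Among genes of the resting microglial state, many of which are known to depend on Sall1, 2 fell. Of 14 such genes 11 were tested, and 2 were called lower and 0 higher, beside 1.79% and 6.55% of all genes tested. DESeq2 called 3 lower and 0 higher, beside 2.42% and 8.09%. The median log2 fold change was -1.19 beside -0.05 for all genes tested. At an unadjusted p under 0.05, 8 were lower and 0 higher, beside 8.51% and 12.8% of all genes tested. With total counts alone, 5 were called lower and 0 higher, beside 5.12% and 4.91% of all genes. With the replicate number as a block, 11 were called lower and 0 higher, beside 13.2% and 17.6% of all genes. Tgfbr1, a receptor chain for TGF-beta, on which microglia depend, fell from 710 ± 10.3 to 261 ± 9.89 CPM (log2 fold change -1.44 ± 0.18, edgeR adjusted p = 0.0080). Olfml3, a secreted protein of microglia, fell from 59.4 ± 1.32 to 24.2 ± 2.64 CPM (log2 fold change -1.29 ± 0.22, adjusted p = 0.024). Neither was called with LPS replicate 1 left out (Tgfbr1 -1.40, adjusted p = 0.093, Olfml3 -1.18, 0.23) or with LPS replicate 2 left out (-1.48, 0.078 and -1.40, 0.12), although the values stayed close. In both settings this list held 0 calls, and without control replicate 2 it held 4. P2ry12, the ADP receptor of microglial processes, and Tmem119, a microglial membrane protein, had values of -1.29 ± 0.47 and -1.19 ± 0.37 without a call.

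Hhex encodes a homeobox repressor and lies on chromosome 19 (37434841 to 37440731). It had few counts, 18 and 25 without LPS and 13 and 16 with it. These gave 4.77 and 4.84 CPM in control and 3.13 and 3.87 CPM in LPS, so both LPS libraries lay below both controls. The mean was 4.81 ± 0.0541 CPM in control and 3.50 ± 0.523 CPM in LPS, with a log2 fold change of -0.46 ± 0.39 and no call (edgeR adjusted p = 0.60). Groups that do not overlap were common in these data. They were found for 3 of the 4 lineage factors tested, Lyl1, Spi1 and Hhex, and for 50.6% of all genes tested.

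Per kilobase of exon, the 4 factors with 1 accession could be set side by side. In control, Spi1 stood at 82.8 and 33.8 CPM per kilobase and Lyl1 at 20.6 and 11.2, with no overlap between them. Hhex followed at 2.65 and 2.69 and Sall1 at 2.06 and 1.66. In LPS, Spi1 stood at 235 and 113, and the other 3 lay together, with Sall1 at 2.06 and 1.97, Hhex at 1.74 and 2.15 and Lyl1 at 1.87 and 1.21. Lyl1 was thus second in control, and in LPS it was not separated from Hhex, while the range of Sall1 lay just above that of Lyl1. These levels rest on GENCODE exon lengths and were not compared by a test.

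**Figure D3:**
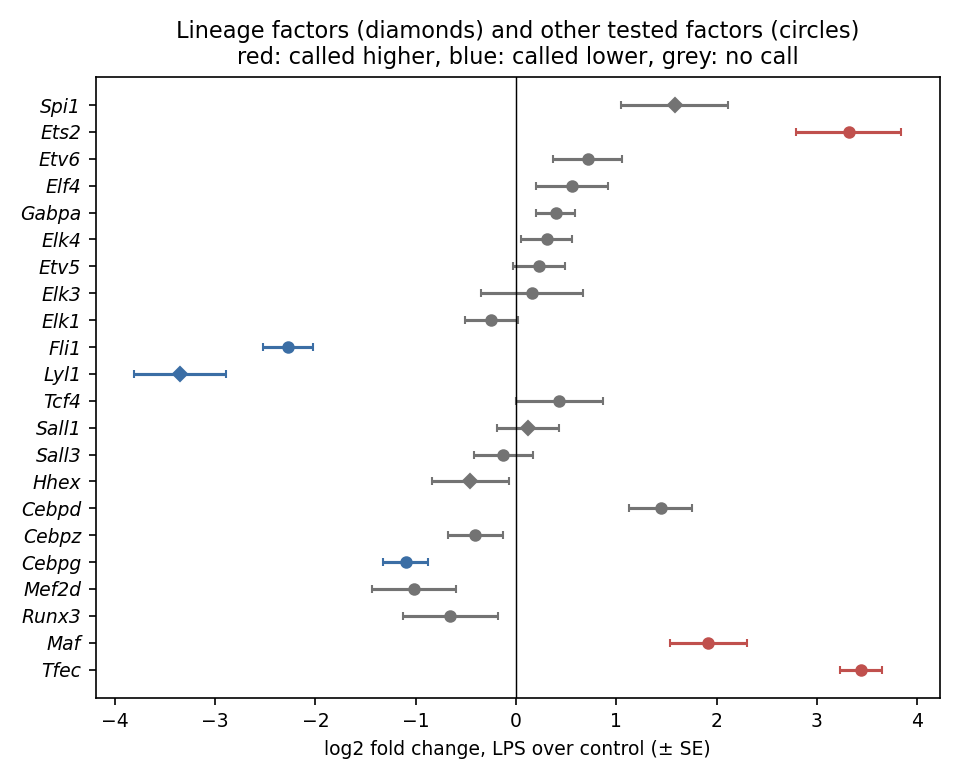
Log2 fold change of LPS over control (horizontal axis, bars are SE) for the 4 lineage factors tested (diamonds), their tested relatives and Maf and Tfec (circles), red where called higher, blue where called lower and grey without a call. Lyl1 (-3.35) and Fli1 (-2.28) stand at the left, and Tfec (3.44) and Ets2 (3.32) at the right.

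The Mef2 genes, MADS-box factors known from muscle and neurons as well as microglia, were barely counted. Mef2a (chromosome 7, 67231163 to 67376456) had 5, 15, 7 and 9 counts in control replicates 1 and 2 and LPS replicates 1 and 2. Only 2 of its 5 accessions held counts. The groups overlapped, and the ratio of control to LPS from the summed counts was 1.16 (95% Clopper-Pearson interval 0.571 to 2.39, counting error only). Mef2c (chromosome 13, 83504017 to 83667079), with 2 accessions, had 4 and 3 counts without LPS and 1 and 0 with it. From these 7 and 1 counts the ratio of control to LPS was 6.50, with an interval of 0.835 to 293 that includes no difference. Fitted without a filter on low counts, Mef2a had a log2 fold change of -0.07 ± 0.60 and Mef2c of -2.37 ± 1.41 (edgeR adjusted p = 0.97 and 0.57).

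Of the relatives with 1 accession, Mef2d gave more counts and Mef2b was listed at 0. Mef2d had 186 and 121 counts without LPS and 85 and 63 with it, with 36.4 ± 18.3 and 17.8 ± 3.69 CPM. Its log2 fold change was -1.02 ± 0.42 without a call (edgeR adjusted p = 0.24). Mef2d was called lower when edgeR took the replicate number as a block (-0.98, adjusted p = 5.8e-04), but not by DESeq2 (-1.01, 0.28). Without control replicate 1 the value was -0.40 and without control replicate 2 it was -1.50. Class IIa deacetylases bind and hold back Mef2 factors. Of these, Hdac9 and Hdac4 had values of -0.09 and -0.53 without a call, and Hdac5 and Hdac7, with 5 and 8 accessions, were under the minimum.

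Runx1, which encodes the DNA-binding subunit of core binding factor, was listed at 0 in all 4 libraries for each of its 4 accessions (chromosome 16, 92601466 to 92826074). Its partner subunit Cbfb, also with 4 accessions, was listed at 0 as well. Runx2, with 8 accessions, had 2 to 6 counts. Runx3, the relative with 1 accession, had 15 and 19 counts without LPS and 13 and 7 with it, with a log2 fold change of -0.66 ± 0.47 and no call (edgeR adjusted p = 0.52). Within the Runx family, a count large enough to test was found for the gene with 1 accession.

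Cebpa and Cebpb were listed at 0 in all 4 libraries, Cebpa for its 5 accessions (chromosome 7, 35119293 to 35121928) and Cebpb for its 3 (chromosome 2, 167688915 to 167690432). Cebpa drives the granulocyte and macrophage lineage, and Cebpb is known as a factor of inflammatory gene expression in macrophages. A 0 would allow up to 3 counts a library, or 0.581 to 0.795 CPM, but such a limit holds only for reads given to an accession. All accessions of Cebpa were paired with 1 and the same GENCODE transcript of 2626 exonic bases, and all accessions of Cebpb with 1 transcript of 1504 bases, so no base belonged to a single accession. The annotated gene Tmem189 overlaps Cebpb on the other strand and had 1999 counts over the 4 libraries together. What part this overlap has in the 0 of Cebpb was not tested. For Runx1, 3 of the 4 accessions had no exonic base of their own and the fourth had 1203.

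The same was seen across the table. Among genes whose accessions could all be paired with GENCODE transcripts, 1211 of 18741 genes with 1 accession (6.46%) were listed at 0 in all 4 libraries. The share was 26.5% of 4076 genes with several accessions that had some base covered by 1 accession alone, and 59.2% of 571 genes with several accessions and no such base. In that last class 27 genes (4.73%) averaged 10 counts or more, against 47.3% of the genes with 1 accession. Gapdh, a glycolytic enzyme that every cell uses, had 1, 5, 2 and 2 counts. It has 2 accessions with 297 bases covered by 1 alone, so it is not in the class of Cebpa and Cebpb. Actb, the cytoskeletal actin, has 1 accession and had 10422 to 22465 counts. The listed 0 of Cebpa and Cebpb therefore cannot be taken as a measure of their expression. How reads were counted is not given, so the reason for the 0 was not tested. For Runx1 the 0 could speak only for the 1203 exonic bases that belong to 1 transcript alone, and it gives no level of the gene. The low counts of Mef2a and Mef2c are uncertain as levels.

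**Figure D4:**
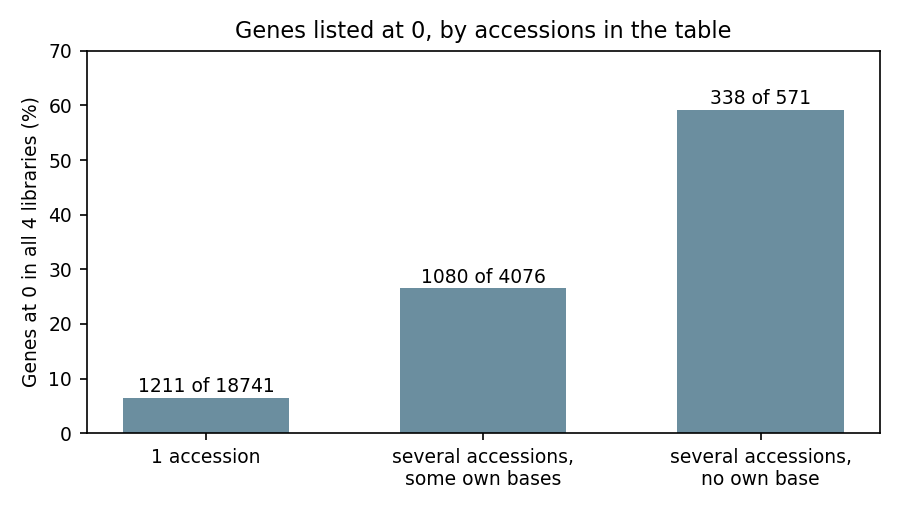
Share of genes listed at 0 in all 4 libraries (vertical axis, percent) for genes with 1 accession, with several accessions of which some base is covered by 1 alone, and with several accessions and no such base. The shares are 6.46%, 26.5% and 59.2%, and Cebpa and Cebpb belong to the last class.

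Among the C/EBP relatives with 1 accession, edgeR with TMM scaling called Cebpg lower and did not call Cebpd, whose value was positive. Both outcomes changed in some other settings. Cebpd, an acute phase factor, had 50 and 80 counts without LPS and 126 and 199 with it, with 14.4 ± 1.60 and 39.2 ± 12.6 CPM. Both LPS libraries lay above both controls, and the log2 fold change of 1.44 ± 0.32 missed the threshold narrowly (edgeR adjusted p = 0.053, range 4.5e-06 to 0.27 over the settings). Cebpd was called higher by DESeq2 (1.46, adjusted p = 0.012) and by edgeR with relative log expression in place of TMM scaling (1.46, 0.048). It was also called by edgeR with no filter (1.55, 0.012) and with the replicate number as a block (1.44, 4.5e-06). Cebpg, which lacks an activation domain and serves as a dimer partner, had 242 and 380 counts without LPS and 123 and 143 with it. It fell from 68.9 ± 6.74 to 32.1 ± 3.51 CPM (log2 fold change -1.10 ± 0.22, edgeR adjusted p = 0.041), but it was not called when control replicate 2 (0.10), LPS replicate 1 (0.32) or LPS replicate 2 (0.18) was left out, nor with no filter (0.060). Cebpz, a nucleolar protein that shares the name, had a value of -0.41 ± 0.27 without a call. Cebpe had at most 1 count, and Ddit3, with 2 accessions, 3 to 7.

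Genes described elsewhere as targets of C/EBP factors rose in 10 of 12 tested cases, with a median log2 fold change of 5.15. Over all genes tested, 6.55% were called higher. The list was written with the LPS response of these data known, and several of its genes also answer to NF-kB, so it bears on neither Cebpa nor Cebpb. Ccl5, a chemokine, and Il6, a cytokine, rose by 9.68 ± 0.36 and 9.51 ± 0.34 (edgeR adjusted p = 2.9e-04 for each). Csf3, the granulocyte growth factor, had 0 counts in both controls and 84 and 132 in LPS, at least 77.6-fold higher against a floor of 3 counts for the controls together. With Csf3 at this bound the median of the list was again 5.15. The 2 without a call were Arg1, the enzyme arginase (-0.84 ± 0.51), and Lyz2, the macrophage lysozyme (-0.04 ± 0.20). The count of calls was 9 without LPS replicate 1 and 8 without LPS replicate 2.

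Among other factors of the myeloid lineage and of microglia, 2 rose. Of the 19 such genes reported here 10 were tested, and edgeR called 2 higher and 0 lower, beside 6.55% and 1.79% of all genes tested. DESeq2 also called 2 higher and 0 lower, beside 8.09% and 2.42%. At an unadjusted p under 0.05 in edgeR, 4 were higher and 2 lower, beside 12.8% and 8.51% of all genes tested. The median log2 fold change was 0.45. Tfec, a macrophage member of the family of Mitf, had 78 and 107 counts without LPS and 984 and 878 with it. It rose from 20.7 ± 0.0519 to 224 ± 17.3 CPM, by 3.44 ± 0.21 (edgeR adjusted p = 8.7e-04). Maf, a basic leucine zipper factor, had 400 and 284 counts without LPS and 1502 and 1018 with it, and rose by 1.92 ± 0.38 on the log2 scale (adjusted p = 0.040). With LPS replicate 1 left out Maf had a value of 1.62 and no call (adjusted p = 0.15), and with LPS replicate 2 left out it had 2.17 and no call (0.062). Irf8, which acts with PU.1 in microglial development, had 485 and 333 counts without LPS and 619 and 452 with it, which gave a value of 0.42 ± 0.37 and no call (0.62). Ikzf1, with 2 accessions and 6 to 21 counts, had a value of 1.41 ± 0.54 without a call (0.21).

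**Figure D5:**
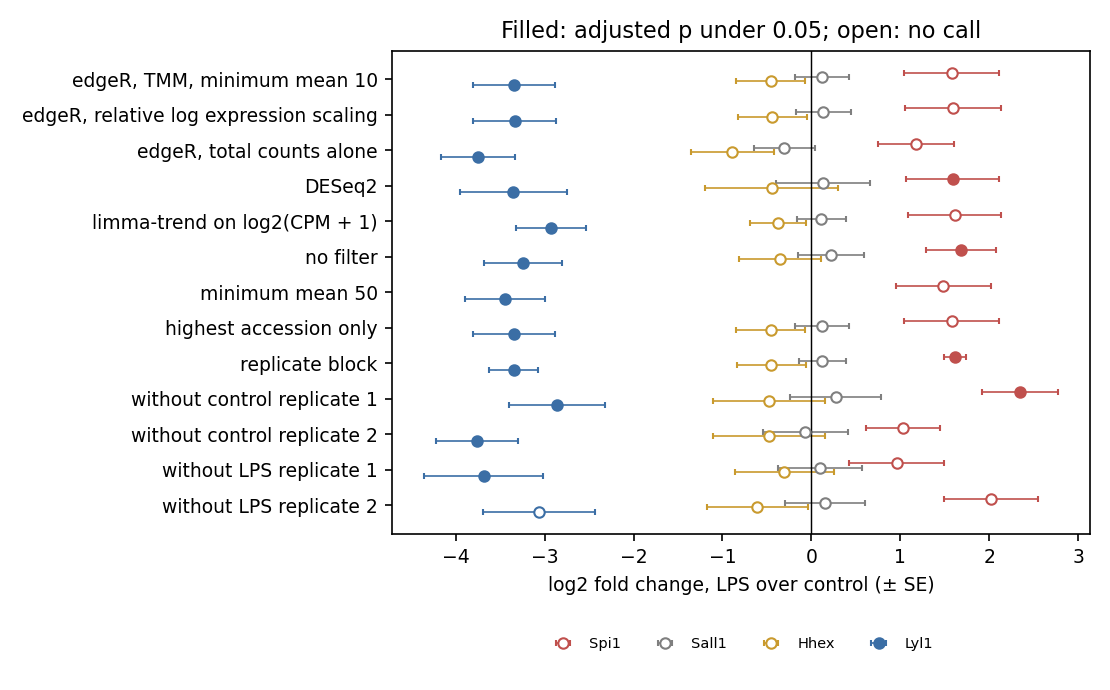
Log2 fold change of LPS over control (horizontal axis, bars are SE) of Spi1, Sall1, Hhex and Lyl1 under edgeR with TMM scaling and 12 other settings, filled where the adjusted p was under 0.05. Lyl1 lies between -3.76 and -2.86 in all settings and Spi1 between 0.96 and 2.35, filled in 4 of them, while Sall1 crosses 0.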

How the data were processed

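The deposited table from the authors holds counts, all whole numbers, of 32915 RefSeq accessions in 4 libraries. Its name calls the counts normalized and no source used here says how, so a rescaling cannot be told from the values alone. The totals differ between libraries, and the values were treated as counts. HTSeq 0.6.1, TopHat2 2.0.10, Cufflinks 2.2.1, Trimmomatic 0.33, CASAVA 1.8.2 and the build mm10 are listed, with no role, in the submitters' processing notes. How reads were counted, and on which strand and annotation, is not given in the sources used here. Accessions were matched to symbols with a RefSeq table of GRCm38.p6 (32483) or GENCODE M21 metadata (191), and 241 matched neither and held 20.1% to 24.9% of counts. No value column was left unused.

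Counts were summed per gene and tested with edgeR 4.0.16 (R 4.3.3, TMM, mean count of at least 10, no covariate, two-sided). CPM uses the counts of tested genes. The SE is the log2 fold change over the square root of F. Replicate libraries were not repeats of each other, with a chi-square of 26.9 (control) and 22.6 (LPS) per degree of freedom. The fit was tested on simulated data. DESeq2 1.42.0 and limma 3.58.1 were alternatives. The lineage factors, gene lists and tests were chosen with earlier results of these data known. A member of the list of other myeloid factors is not reported here and is left out of that list's counts. Named genes were all 9 factors, the called genes of each list (up to 3 in each direction) and tested relatives; genes given for context (Csf1r, Cx3cr1, Tyrobp, P2ry12, Tmem119, Irf8, Ikzf1, Arg1, Lyz2, Gapdh, Actb), were chosen after their values were seen.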

Additional observations from a re-analysis of the deposited data

How the results depend on the processing

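The direction of Lyl1, Spi1 and Hhex was kept in each setting that tested them. The value of Sall1 changed sign with total counts alone (-0.30) and when a library was left out (-0.066 to 0.27), without a call in any setting. Leaving out 1 library gave -3.76 to -2.86 for Lyl1, whose call was lost without LPS replicate 2, and 0.96 to 2.35 for Spi1, which was called without control replicate 1. Spi1 was also called by DESeq2 (1.59), with no filter (1.68) and with the replicate number as a block (1.62, adjusted p = 1.2e-09). Over all genes, 625 were called higher and 171 lower. Leaving out 1 library gave 339 to 660 higher and 33 to 237 lower, with 33 lower without either LPS library, where the lone library is assumed to vary like the other group. Total counts alone gave 489 lower and 469 higher (49.0% higher in place of 78.5%). The replicate block gave 1676 higher and 1258 lower (57.1% higher), with 11 of 11 resting-state genes and 8 of 10 microglia markers lower beside 13.2% of all genes, and the deviations of same-numbered libraries correlated across genes (r = 0.67), but the labels tie the numbers to no culture or day, so the block stays an alternative. Sall1 and Hhex were not tested at a minimum mean of 50. Depth limits Hhex, with 13 to 25 counts, and Mef2c, with at most 4, and for Cebpa, Cebpb and Runx1, listed at 0, the table gives no level to which a depth limit could apply. The cause of these shifts was not tested.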
